A study of Mus musculus with 6 samples.

Results

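The genes described here are the Wnt ligands, their receptors, their secreted antagonists and the genes that transduce or feed back on the signal. They were chosen by symbol: every Wnt, Fzd, Dkk or Sfrp gene with a number, together with 14 spelled out by name (Lrp5, Lrp6, Ror1, Ror2, Axin1, Axin2, Lef1, Tcf7, Tcf7l1, Tcf7l2, Znrf3, Rnf43, Nkd1 and Ctnnb1). This gave 51 of the 24421 rows of the deposited table. The libraries hold polyadenylated RNA of cultured primary proximal tubular epithelial cells of the mouse kidney, harvested after 24 h in 20 µM erastin2. Erastin2 blocks cystine uptake and can trigger ferroptosis, a death driven by lipid peroxidation. All 6 libraries had received the drug, so differences present without it and differences in the response cannot be told apart. The groups were 3 libraries labelled Atg5F/F, the floxed control, and 3 labelled Atg5KO, all of the same batch date. The labels give no Cre driver, mouse strain, sex, age, or animal or culture per replicate, so the spread behind each p-value is that between these samples and may be technical.

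Wnt proteins are lipid-modified secreted ligands. In the canonical branch a Wnt binds a Frizzled receptor and the co-receptor LRP5 or LRP6, which stops the AXIN and APC complex from marking beta-catenin for destruction. Beta-catenin then joins TCF and LEF factors on DNA and switches on targets that include inhibitors of the pathway itself, such as Axin2. Other branches run through ROR and RYK receptors to cell polarity or calcium. In the kidney the pathway builds the nephron during development and is reactivated in injured tubules.

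Atg5, the targeted gene, was higher rather than lower where the label was Atg5KO. Its level was 8.76, 8.95 and 7.94 FPKM (a read count divided by gene length and library total) in Atg5F/F replicates 1 to 3 and 13.3, 11.5 and 12.7 FPKM in Atg5KO replicates 1 to 3. The difference was 0.50 on the log2(FPKM + 1) scale (SE 0.066, limma adjusted p = 5.5e-04), with an exact two-sided permutation p = 0.1, the smallest that 3 against 3 can give. No label names the deleted exons of Atg5, and a gene-level value does not resolve exons, so the labels could not be checked from it. The groups are therefore called F/F-labelled and KO-labelled, and every direction rests on those labels. The totals implied by the FPKM values were 15528454 to 30004933 reads. Of 12 markers of the proximal tubule 4 reached 1 FPKM in at least 3 libraries. Lrp2, the endocytic receptor megalin, fell from 54.4 to 35.4 FPKM, and Ggt1 and Hnf4a fell as well, while Aqp1 rose. The 12 markers together summed to 203.2 to 220.3 FPKM in F/F-labelled and 117.2 to 128.1 FPKM in KO-labelled libraries. The part of this difference in the Wnt results was not tested. The transporter gene Slc22a8 was at 0 in all libraries, and Slc34a1, Slc5a2, Slc22a6 and Slc13a3 had means under 0.3 FPKM in both groups. The libraries thus held some markers of the labelled cell type and little or none of others.

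Of the 51 genes, 24 reached 1 FPKM in at least 3 libraries and were tested, and these 24 were above 1 FPKM in all 6. The called changes were mostly upward in KO-labelled libraries. By limma (adjusted p under 0.05 over all 11559 tested genes of the table), 14 were higher, 2 were lower and 8 were not called. The median of their log2 fold changes was 0.21. Over all tested genes 21.3% were called higher and 17.9% lower, 39.2% in either direction, with a median of 0.02. The groups did not overlap for 15 genes with KO-labelled libraries above and for 2 with them below. Among all tested genes 28.7% lay apart in the first way and 23.2% in the second, 51.9% in all. In bulk RNA, fewer cells of a type and less RNA per cell cannot be told apart.

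Of the 19 ligands 6 were tested, 4 higher and 1 lower, against 21.3% and 17.9% of all tested genes. Wnt16 alone made up most of the summed ligand FPKM of these cells, and it was lower in KO-labelled libraries, while 4 less abundant ligands were higher. Wnt16 (chromosome 6, 22288227 to 22298522 in GRCm38) is best known for its part in bone. It had 231.2, 243.6 and 247.3 FPKM in F/F-labelled and 193.7, 197.4 and 202.8 FPKM in KO-labelled replicates 1 to 3. All 3 KO-labelled values lay below all F/F-labelled ones. From 240.7 ± 8.42 to 198.0 ± 4.59 FPKM (SD, n = 3) the log2 difference was -0.28 (SE 0.043, limma adjusted p = 0.0012), resting on 27063 and 17812 reads. By mean FPKM over the 6 libraries Wnt16 ranked 195th of 24421 rows. The FPKM values imply a gene length of 1666 bases, against 4360 bases of exons in GENCODE vM21, so its FPKM is read against a shorter gene model than GENCODE gives.

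Wnt7b, which patterns the kidney medulla from the collecting duct during development, was the next ligand by level. It had 18.8, 19.3 and 18.3 FPKM in F/F-labelled and 25.0, 24.4 and 24.0 FPKM in KO-labelled replicates, and rose by 0.36 (SE 0.040, limma adjusted p = 2.0e-04). Wnt9a, known from joint and skeletal development, went from 11.4, 11.2 and 11.1 FPKM to 16.6, 17.1 and 15.9 FPKM, a rise of 0.52 (SE 0.045, limma adjusted p = 5.3e-05). In both genes the 3 libraries of a group lay close together and the groups were well apart.

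Wnt5a, the prototype of ligands that act through ROR receptors, rose from 8.28, 7.91 and 7.66 to 9.67, 10.3 and 9.82 FPKM (0.29, SE 0.051, limma adjusted p = 0.0026). Wnt7a rose from 3.12, 2.70 and 3.64 to 6.08, 5.51 and 4.56 FPKM (0.62, SE 0.11, limma adjusted p = 0.0026). Replicates of Wnt7a spread widely for its level, but the lowest KO-labelled value was still above the highest F/F-labelled one. Wnt4, which drives the conversion of mesenchyme into nephrons, stood at 1.28, 1.38 and 1.73 FPKM against 2.00, 1.78 and 1.83 FPKM. Its groups did not overlap, yet it was not called (0.22, SE 0.093, limma adjusted p = 0.088). Of the 13 alternatives that tested Wnt4, only voom on the recovered reads called it (0.38, limma-voom adjusted p = 0.031).

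**Figure D1:**
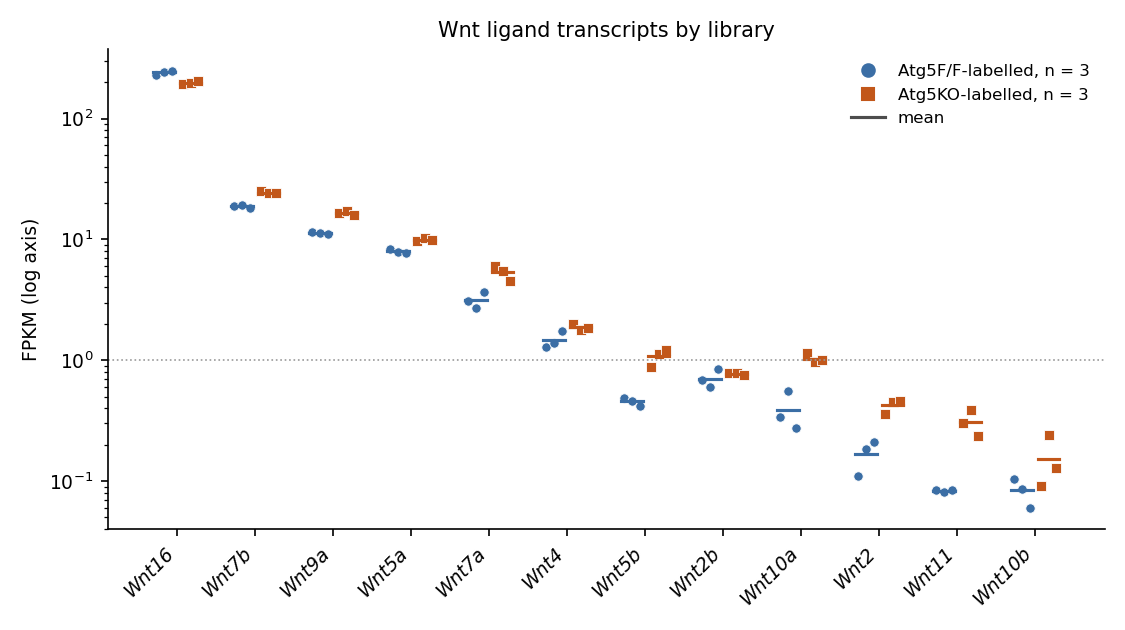
FPKM of the 12 Wnt ligands detected in every library, on a log axis, for 3 F/F-labelled (circles) and 3 KO-labelled libraries (squares), with bars at the group means and a dotted line at 1 FPKM. Wnt16 stands above all other ligands and is lower in KO-labelled libraries, while Wnt7b, Wnt9a, Wnt5a and Wnt7a are higher there.

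The share of Wnt16 in the ligand pool was lower in every KO-labelled library. Wnt16 held 83.8%, 84.6% and 84.8% of the summed ligand FPKM in F/F-labelled replicates 1 to 3 and 75.5%, 75.8% and 77.2% in KO-labelled ones. The other 18 ligands together had 44.3 to 44.7 FPKM in F/F-labelled and 59.9 to 63.2 FPKM in KO-labelled libraries. The sum with Wnt16 was 276.0 to 291.6 FPKM against 256.6 to 262.7 FPKM. These sums are descriptions, and they weigh each gene by the length the authors used for it.

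**Figure D2:**
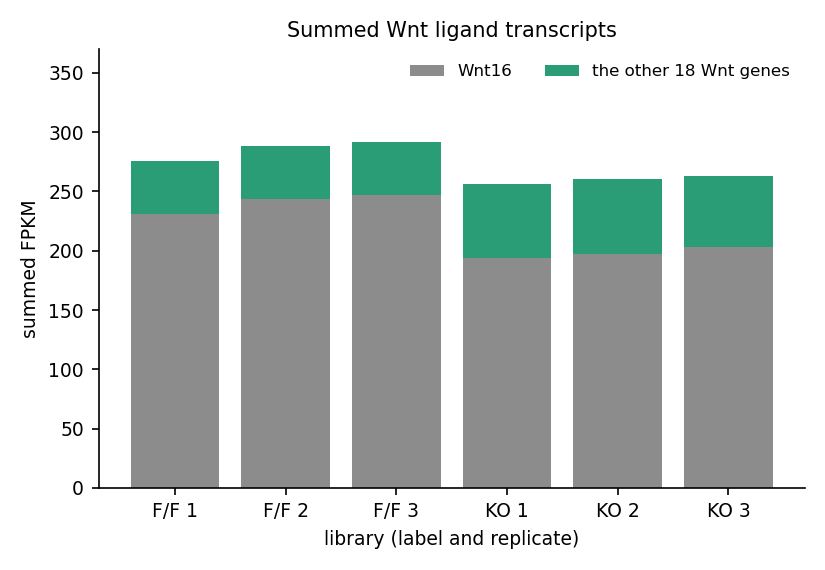
Summed FPKM of the Wnt ligands in each library, stacked as Wnt16 (grey) and the other 18 genes (green), with the axis from 0. The green part is 44.3 to 44.7 FPKM in F/F-labelled and 59.9 to 63.2 FPKM in KO-labelled libraries, and the grey part is smaller in the KO-labelled ones.

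Below the filter stood 27 of the 51 genes, 13 of them ligands. Of the 27, 15 had at least 10 reads over the 6 libraries, 9 had fewer but some, and Wnt8a, Wnt9b and Dkk4 had 0 in all libraries. A count of 0 allows up to 3 reads in a library, a limit that covers counting error only. The 15 were tested with voom on the recovered reads, an alternative chosen after seeing the data. It called 7 higher and 0 lower, where 10.9% of all genes below the filter with at least 10 reads were called higher and 6.02% lower. A gene with so few reads can reach the minimum through the group where it is high, as Fzd10, Dkk2 and Sfrp1 did, so that count supports nothing further.

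The ligands among these 7 were Wnt10a, Wnt5b, Wnt2 and Wnt11, each with no overlap between groups, as for 17.3% of genes below the filter with at least 10 reads. Wnt10a, a canonical ligand of skin and teeth, had 20, 17 and 12 reads in F/F-labelled and 44, 32 and 34 reads in KO-labelled replicates (0.391 ± 0.149 and 1.03 ± 0.092 FPKM, SD, n = 3), a log2 difference of 1.51 on reads (SE 0.30, limma-voom adjusted p = 4.4e-04). Wnt5b, the close relative of Wnt5a, had 39, 19 and 25 against 46, 51 and 56 reads, or 0.458 and 1.08 FPKM (1.19, limma-voom adjusted p = 5.2e-04). Wnt11, which marks the ureteric bud tips in the developing kidney, had 8, 4 and 6 against 19, 21 and 13 reads (1.78, limma-voom adjusted p = 0.0024). For Wnt2 the reads were 7, 6 and 10 against 15, 16 and 17 (1.38, limma-voom adjusted p = 0.012). These 4 were also called by limma on log2(FPKM + 1) with no filter (adjusted p = 0.0044 to 0.0076), a setting in which 12.9% of all genes with reads were called higher, 10.4% lower and 23.3% in either direction. The authors' deposited table gives them log2 fold changes of 1.44, 1.18, 1.83 and 1.34 for Wnt10a, Wnt5b, Wnt11 and Wnt2. Wnt2b at 0.705 ± 0.124 and 0.771 ± 0.013 FPKM and Wnt10b with 13 and 18 reads were not called. Wnt1, Wnt3, Wnt3a, Wnt6 and Wnt8b had 0 to 5 reads per library, too few to compare.

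Among the 10 Frizzled genes 8 were tested, and 5 of them were higher in KO-labelled libraries, against 21.3% of all tested genes. Among these 8 Fzd4 had the largest rise in all alternatives, and Fzd5, Fzd7 and Fzd8 were not called. Fzd4 (chromosome 7, 89404355 to 89413134 in GRCm38), also the receptor of norrin in retinal vessels, had 7.46, 9.14 and 6.93 FPKM in F/F-labelled and 13.3, 15.4 and 15.0 FPKM in KO-labelled replicates. The groups were far apart, at 7.84 ± 1.15 and 14.5 ± 1.11 FPKM (SD, n = 3), and differed by 0.82 (SE 0.093, limma adjusted p = 2.4e-04). Fzd6, a receptor known from planar polarity of skin and hair, was the most abundant Frizzled gene at 20.7, 20.7 and 19.6 FPKM against 28.0, 28.2 and 29.2 FPKM (0.47, SE 0.040, limma adjusted p = 5.5e-05). Its libraries lay close together within each group. Fzd6 rose beside Fzd3, its partner in polarity, which went from 1.47 ± 0.114 to 2.23 ± 0.060 FPKM (0.39, SE 0.076, limma adjusted p = 0.0045, and 0.59 on the recovered reads).

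Fzd1 rose from 8.42 ± 0.303 to 10.8 ± 0.892 FPKM (0.33, SE 0.063, limma adjusted p = 0.0040). Fzd2 rose from 1.42 ± 0.068 to 1.91 ± 0.196 FPKM (0.26, SE 0.084, limma adjusted p = 0.036), a call at the edge. Removing the length trend ended it (limma adjusted p = 0.063), as did quantile normalization (0.059) and leaving out any one library except Atg5KO replicate 3 (0.055 to 0.11). Fzd7, which is closely related to Fzd1 and Fzd2, stood at 7.10 ± 0.258 and 7.18 ± 0.355 FPKM (0.01, SE 0.056, limma adjusted p = 0.88). Fzd5 was at 5.44 ± 0.464 and 5.45 ± 0.410 FPKM (SE of the log2 difference 0.074, limma adjusted p = 0.99). The sign of both differences turned with the scaling. Fzd8 was at 4.53 and 4.06 FPKM with overlapping groups (-0.13, SE 0.075, limma adjusted p = 0.21). The summed FPKM of the 10 Frizzled genes was 55.5 to 58.4 in F/F-labelled and 73.4 to 76.4 in KO-labelled libraries. Of the genes below the filter, Fzd9 had 23 and 19 reads per group. Fzd10 had 5, 1 and 0 reads against 5, 12 and 5. It reached 10 reads only through the KO-labelled libraries, so its voom call carries no weight. Limma with no filter did not call it (adjusted p = 0.10). The authors' deposited FDR for Fzd10, on the same few reads, is 0.023.

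Of the 4 co-receptors 3 were tested, and 1 was called higher, too few to set against the 21.3% of all tested genes. Lrp6, the main co-receptor of the canonical branch, had 26.6, 27.0 and 27.2 FPKM against 29.5, 29.7 and 30.7 FPKM, a rise of 0.15 (SE 0.036, limma adjusted p = 0.013) that was not called with the length trend removed (0.06, adjusted p = 0.22). The groups did not overlap. Its relative Lrp5 went from 14.4 ± 1.10 to 15.8 ± 0.278 FPKM and was not called (0.12, SE 0.056, limma adjusted p = 0.12). It was called higher by voom on reads (0.14, adjusted p = 0.042) and without Atg5F/F replicate 2 (0.18, limma adjusted p = 0.027). Ror1, a receptor of the Wnt5a branch, was at 4.96 ± 0.239 and 5.59 ± 0.432 FPKM and was not called either (0.14, SE 0.068, limma adjusted p = 0.12). Ror2, the other receptor of that branch, was close to undetected, with 4 reads in all F/F-labelled and 2 in all KO-labelled libraries.

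**Figure D3:**
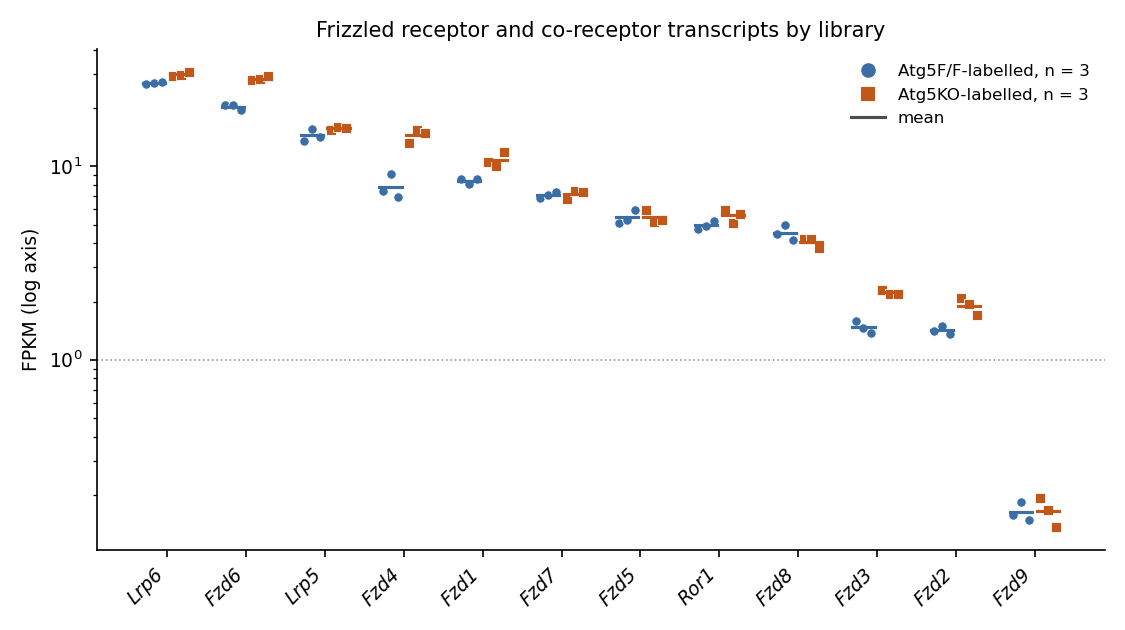
FPKM of 12 Frizzled and co-receptor genes detected in every library, on a log axis, for 3 F/F-labelled (circles) and 3 KO-labelled libraries (squares), with bars at the group means and a dotted line at 1 FPKM. Fzd4, Fzd6, Fzd1 and Fzd3 are higher in KO-labelled libraries without overlap, and those of Fzd7 and Fzd5 overlap between the groups.

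Secreted antagonists came down to a single gene. Dkk3, a divergent member of the Dickkopf family that stressed tubule cells are known to release, held 99.5% to 99.8% of the summed FPKM of the 8 Dkk and Sfrp genes in each library. Dkk3 (chromosome 7, 112116017 to 112159057 in GRCm38) had 48.5, 50.1 and 46.4 FPKM in F/F-labelled and 80.2, 92.5 and 86.5 FPKM in KO-labelled replicates. Every KO-labelled library was far above every F/F-labelled one, at means of 48.3 ± 1.84 and 86.4 ± 6.12 FPKM (SD, n = 3). The difference of 0.82 (SE 0.055, limma adjusted p = 1.4e-05) was close to that of Fzd4, and which of the pair was larger turned with the setting. On the recovered reads Fzd4 had 0.92 and Dkk3 0.84. Over the 14 alternatives the value for Dkk3 stayed between 0.77 and 0.88.

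The classical antagonists were at the limit of detection. Dkk1, which blocks LRP5 and LRP6, had 1 read in all 6 libraries together, and Dkk4 had 0. Dkk2 had 7, 2 and 0 reads against 10, 5 and 10, and Sfrp1, a decoy that binds Wnt proteins outside the cell, had 1, 0 and 0 against 4, 3 and 3 reads. Both reached 10 reads only through the KO-labelled libraries, so their voom calls carry no weight. Limma with no filter did not call them (adjusted p = 0.054 for Dkk2 and 0.058 for Sfrp1). The authors' deposited FDR, on the same few reads, is 0.039 for Dkk2 and 0.059 for Sfrp1. Sfrp2, Sfrp4 and Sfrp5 had 0 to 4 reads per library.

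Of the feedback inhibitors and Lef1, none was called by limma with or without the filter or by voom where tested, and all but Znrf3 were under 1 FPKM on average in both groups. Axin2, the usual readout of beta-catenin activity, had 28, 11 and 15 reads in F/F-labelled and 16, 11 and 17 reads in KO-labelled replicates, or 0.181 ± 0.033 and 0.191 ± 0.038 FPKM (SD, n = 3). The groups overlapped, and the log2 difference on reads was 0.04 (SE 0.34, limma-voom adjusted p = 0.94), an error wide enough that a moderate change could not be detected at this depth. Lef1, a TCF family factor that is itself a target, had 23, 8 and 13 against 13, 12 and 13 reads (0.169 ± 0.035 and 0.191 ± 0.012 FPKM). Nkd1, a feedback inhibitor that binds Dishevelled, had 2, 0 and 0 against 0, 0 and 0 reads. Rnf43 and Znrf3 are membrane ubiquitin ligases that remove Frizzled receptors from the cell surface. Rnf43 was at 0.585 ± 0.14 and 0.770 ± 0.073 FPKM and was not called on reads (limma-voom adjusted p = 0.14). Znrf3, the only tested feedback inhibitor, had 3.15, 2.76 and 2.85 against 2.29, 2.55 and 2.88 FPKM. Its groups overlapped through Atg5KO replicate 3, and it was not called (-0.13, SE 0.084, limma adjusted p = 0.23). The authors' deposited values for Znrf3 differ from that, with a log2 fold change of -0.22 and an FDR of 0.029.

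In the intracellular core beta-catenin was slightly lower, Axin1 and Tcf7l2 were slightly higher, and Tcf7l1 rose most. Ctnnb1, which encodes beta-catenin and also links cadherins to the cytoskeleton, was the most abundant of the 51 genes. It had 257.1, 268.3 and 259.4 FPKM in F/F-labelled and 232.4, 235.3 and 237.4 FPKM in KO-labelled replicates. The groups did not overlap, and the difference was -0.15 (SE 0.039, limma adjusted p = 0.014). The call was lost with quantile normalization (-0.07, adjusted p = 0.21) and when Atg5F/F replicate 3 (limma adjusted p = 0.052) or Atg5KO replicate 1 (0.051) was left out. In GENCODE vM21, 759 of the 5192 exon bases of Ctnnb1 overlap exons of Ulk4 on the other strand, and the strand setting of the counting was not given. Smaller overlaps with opposite-strand genes, up to 6.62% of exon bases, are annotated for Wnt7b, Wnt5a, Fzd6, Axin2 and Tcf7l1, and larger ones, from 8.80% to 17.8%, for Wnt11, Lef1, Sfrp2 and Fzd5. Axin1, the scaffold of the destruction complex, rose from 21.5 ± 0.364 to 23.6 ± 0.832 FPKM (0.13, SE 0.041, limma adjusted p = 0.032), and this call held in 6 of 14 alternatives. It was lost with median-ratio scaling (0.065), quantile normalization (0.060) and the length trend removed (0.097), and without any one library except Atg5KO replicate 2 (0.050 to 0.095). The authors' deposited FDR for Axin1 is 0.13.

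Tcf7l1, which mostly represses targets until beta-catenin displaces it, had 1.99, 1.79 and 1.71 FPKM against 3.08, 3.40 and 2.51 FPKM. All KO-labelled values were higher, by 0.49 on the log2(FPKM + 1) scale (SE 0.097, limma adjusted p = 0.0043) and by 0.69 on the recovered reads. Tcf7l2, the main TCF factor of many adult epithelia, rose from 5.21 ± 0.254 to 6.16 ± 0.187 FPKM (0.21, SE 0.058, limma adjusted p = 0.021). Its call did not survive removal of the length trend (limma adjusted p = 0.064). Leaving out Atg5F/F replicate 1 (0.064) or 2 (0.056), or Atg5KO replicate 3 (0.065), also ended it. Tcf7 was at 2.77 ± 0.309 and 3.15 ± 0.488 FPKM with overlapping groups and was not called (0.14, SE 0.10).

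**Figure D4:**
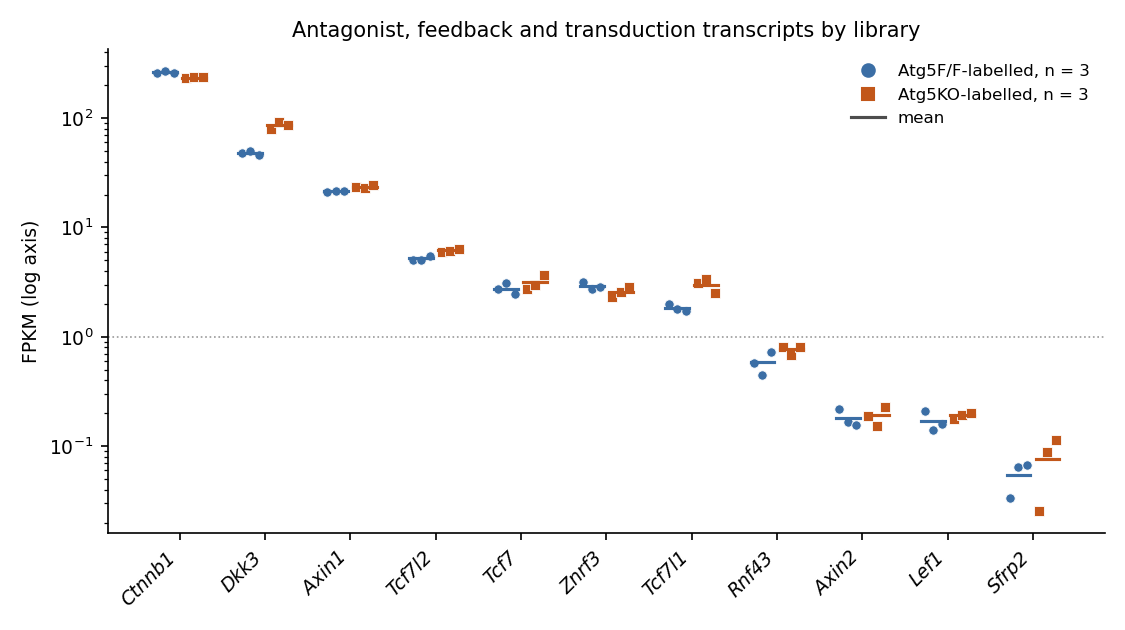
FPKM of 11 antagonist, feedback and transduction genes detected in every library, on a log axis, for 3 F/F-labelled (circles) and 3 KO-labelled libraries (squares), with bars at the group means and a dotted line at 1 FPKM. Dkk3 and Tcf7l1 are higher in KO-labelled libraries, Ctnnb1 is slightly lower, and Axin2 and Lef1 lie near 0.2 FPKM in both groups.

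**Figure D5:**
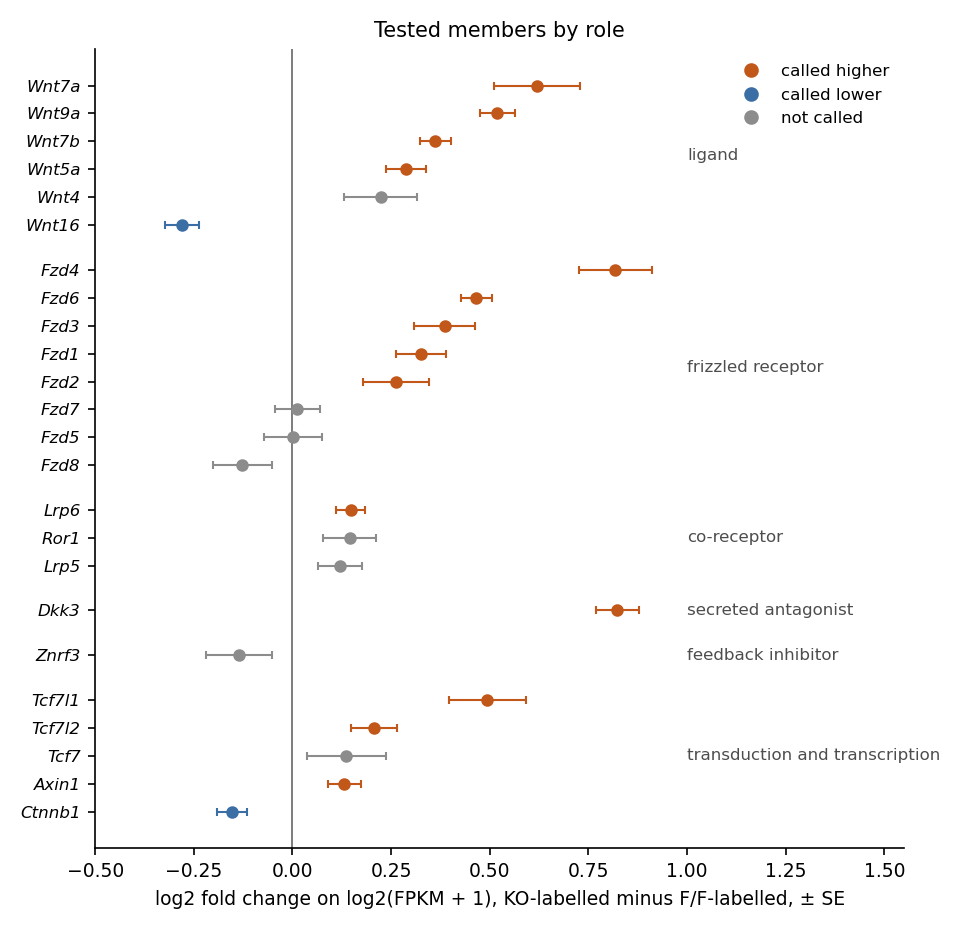
Log2 fold change on the log2(FPKM + 1) scale (KO-labelled minus F/F-labelled, points) with its SE (bars) for the 24 tested genes, ordered by role and coloured by the limma call. Dkk3 and Fzd4, both at 0.82, lie farthest to the right, and Wnt16 at -0.28 farthest to the left.

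TCF and LEF factors bind a short core, so the promoters were searched for CTTTGA or CTTTGT on either strand (TCAAAG or ACAAAG as read here) in the 250 bases before each RefSeq transcript start (build GRCm38.p6). RefSeq promoters were matched for 35 of the 51 genes, with 45 starts, of which 12 held a core (26.7%), against 27.6% of all 32851 promoters of that length. Among the genes called higher or lower, 8 were matched with 10 starts, and 3 of the starts held a core, against 20.6% of the promoters of all tested genes. A match describes letters, not a binding site. The upstream stretches of Fzd1 and Tcf7l1 are shown as those called genes with a core near the start of the gene, and that of Wnt16 as the most abundant ligand, with the core in capitals. The positions are chr5:4758217-4758466 on the minus strand for Fzd1, chr6:72789046-72789295 on the minus strand for Tcf7l1 and chr6:22287977-22288226 on the plus strand for Wnt16.
Fzd1: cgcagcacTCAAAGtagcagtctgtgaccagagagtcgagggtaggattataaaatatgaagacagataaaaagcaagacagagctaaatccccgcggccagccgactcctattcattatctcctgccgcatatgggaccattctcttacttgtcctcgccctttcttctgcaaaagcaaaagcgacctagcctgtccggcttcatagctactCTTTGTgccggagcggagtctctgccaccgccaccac
Tcf7l1: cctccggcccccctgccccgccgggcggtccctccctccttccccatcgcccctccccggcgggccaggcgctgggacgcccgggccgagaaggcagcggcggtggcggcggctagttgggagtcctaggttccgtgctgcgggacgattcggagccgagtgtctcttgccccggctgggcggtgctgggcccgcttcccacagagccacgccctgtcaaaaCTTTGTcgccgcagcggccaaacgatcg
Wnt16: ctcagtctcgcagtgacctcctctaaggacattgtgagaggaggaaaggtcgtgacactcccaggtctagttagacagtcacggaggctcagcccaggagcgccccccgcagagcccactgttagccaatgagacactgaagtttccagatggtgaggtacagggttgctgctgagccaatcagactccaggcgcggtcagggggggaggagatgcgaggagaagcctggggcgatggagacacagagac
Fzd1 holds 2 cores, 242 and 37 bases before the start. Tcf7l1 holds 1, 28 bases before the start, and the window of Wnt16 holds 0. The remaining match among called genes lay at an internal start of Tcf7l2. Axin2, a known target, also has no core in this window.

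Other genes of the pathway were read from 4 lists. Of 31 genes for secretion and extracellular control of Wnt, 14 were tested, 7 higher and 3 lower, where 21.3% of all tested genes were higher and 17.9% lower. The median log2 fold change was 0.13. Apcdd1, a membrane inhibitor of Wnt signalling, rose from 7.47 to 11.7 FPKM (0.59), the polarity co-receptor gene Ptk7 from 11.2 to 16.8 FPKM (0.55), the receptor gene Ryk from 38.2 to 48.4 FPKM (0.33) and Tspan12, a partner of Fzd4, from 6.81 to 8.55 FPKM (0.29). The decreases were in Igfbp4, which binds insulin-like growth factors and LRP6 (3.05 to 0.258 FPKM, -1.69, tested only because of its F/F-labelled level), Trabd2b, a protease that inactivates Wnt proteins (14.4 to 9.10 FPKM, -0.61), and Porcn, the enzyme that attaches the lipid to Wnt proteins (2.66 to 1.95 FPKM, -0.31). These differences are on the log2(FPKM + 1) scale. On the recovered reads that of Igfbp4 was -3.64. Wls, the carrier that brings Wnt proteins to the surface, rose slightly from 134.1 to 143.8 FPKM (0.10, limma adjusted p = 0.047). The R-spondin genes Rspo1, Rspo2 and Rspo3, which strengthen Wnt signalling, and the antagonist genes Wif1 and Sost were at 0 in all libraries. The norrin gene Ndp was at 0 in all libraries as well.

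Of 40 genes of the destruction complex, Dishevelled and the nuclear partners, 33 were tested, 12 higher and 2 lower, with a median of 0.12, against the same 21.3% and 17.9% of all tested genes. Voom on reads called 20 higher, where it called 24.2% of all tested genes higher, 19.6% lower and 43.8% in either direction. Ctnnbip1, an inhibitor that keeps beta-catenin from TCF factors, rose most, from 4.31 to 6.46 FPKM (0.49). It was followed by the casein kinase genes Csnk1g1 (0.35) and Csnk1e (0.26) and by Cby1, a beta-catenin antagonist (0.24). Dvl1, a Dishevelled gene, fell from 44.0 to 38.4 FPKM (-0.19), and the corepressor gene Tle3 from 31.4 to 27.8 FPKM (-0.17).

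Of 32 genes of planar polarity and the calcium branch, 28 were tested, 8 higher and 2 lower, with a median of 0.06. The count called in either direction is near the share over all tested genes (39.2%). The higher count is somewhat above its share (21.3%) and the lower count below its share (17.9%). With the length trend removed, or without Atg5F/F replicate 3, 5 were higher. The lower calls moved from 1 to 5 with the setting, and were 1 without Atg5F/F replicate 2 or 3 or Atg5KO replicate 1 or 2. The polarity genes Prickle1 (1.86 to 2.62 FPKM, 0.34), Vangl1 (6.96 to 9.04 FPKM, 0.34) and Celsr1 (4.98 to 6.47 FPKM, 0.32) rose, as did Nfatc3, a calcium-dependent transcription factor (0.23). Fuz, a polarity effector of cilia, fell from 5.96 to 3.40 FPKM (-0.67), and the kinase gene Prkca fell by 0.17.

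Of 42 commonly named beta-catenin targets 40 were in the table and 28 were tested, 10 higher and 7 lower, with a median of 0.07, where 21.3% of all tested genes were higher and 17.9% lower. Most are targets of other pathways as well. Jag1, a Notch ligand, rose from 28.8 to 59.99 FPKM (1.03), Fn1, the matrix protein fibronectin, from 237.4 to 472.2 FPKM (0.99), and Edn1, endothelin, from 3.67 to 7.72 FPKM (0.90). Sp5, a transcription factor closely tied to Wnt signalling, had 0.858, 0.583 and 0.683 FPKM against 1.98, 1.72 and 1.59 FPKM (0.69) and was tested only because of its KO-labelled level. Fosl1 fell from 6.56 to 3.29 FPKM (-0.82), the urokinase receptor gene Plaur from 89.7 to 57.1 FPKM (-0.64), Vegfa from 48.8 to 36.1 FPKM (-0.42) and Myc from 101.2 to 76.7 FPKM (-0.40). The list thus held genes moving both ways, and Axin2 and Lef1 stood near 0.2 FPKM beside them.

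Markers of other kidney cells that also express Wnt genes were mostly low. The 10 fibroblast and pericyte markers summed to 1.68 to 2.77 FPKM in F/F-labelled and 0.615 to 0.967 FPKM in KO-labelled libraries. Of the 10, 1 was tested, Cspg4, which was lower and was tested only because of its F/F-labelled level. The 6 collecting duct markers summed to 1.01 to 1.44 and 1.65 to 2.31 FPKM, with none above the filter and Aqp2 and Atp6v1g3 at 0. Endothelial markers summed to 10.3 to 11.9 and 7.40 to 9.02 FPKM, mostly Kdr and Flt1, with 2 of 6 tested and Kdr lower. Immune markers summed to 4.61 to 5.64 and 3.89 to 4.44 FPKM, with 1 of 6 tested, no call, and Adgre1, Cd3e and Itgam at 0. For the 6 markers of thick limb and distal tubule the sums were at most 0.1004 FPKM, with none tested and Pvalb, Calb1 and Kcnj1 at 0. Podocyte markers summed to 28.2 to 33.0 and 28.4 to 32.4 FPKM, mostly Synpo, with 4 of 6 tested, Podxl higher and Wt1 lower. The part of these cells in the Wnt results was not tested.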

How the data were processed

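Per the labels' protocols, a stranded kit for mRNA served for all 6 libraries. The submitters' processing notes name featureCounts 1.4.6, HISAT2 2.1.0, Trimmomatic 0.35, bcl2fastq and edgeR, and as builds mm10 and GRCm38. Which annotation, strand setting and filters were used is not given in the sources read here. The authors deposited an FPKM value per gene and library. Per the file headers, they added their own log2 fold change, an adjusted p-value, a separate FDR and a rank score. How that adjusted p-value differs from the FDR is not given. Of these, the authors' deposited log2 fold changes are quoted for Wnt10a, Wnt5b, Wnt11, Wnt2 and Znrf3. Their FDR is quoted for Znrf3, Axin1, Fzd10, Dkk2 and Sfrp1.

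Since an FPKM is a whole read number over a gene length and a library total, its steps gave back whole reads for 18296 of 18296 genes above 0 (tolerance 2.0e-04 reads, or 1.5e-09 of the value). For genes with few reads, the multiple nearest an annotated transcript length was taken. The main test was limma 3.58.1 in R 4.3.3 (trended variance) on log2(FPKM + 1). It took the 11559 genes that reached 1 FPKM in 3 or more of 6 libraries, Benjamini-Hochberg adjusted, called at adjusted p under 0.05. Recovery and test were run on simulated data with known answers, and the outcomes are not given here. Recovery was not scored there for genes with few reads. Limma-voom on reads was an alternative. For genes below the filter voom was run on genes with at least 10 reads, an alternative added after seeing the data. The gene lists were written from general knowledge, and all genes meeting the symbol rule are accounted for. From each pathway list, up to 4 called genes of largest change in each direction are named. Wls, the genes listed at 0 and the marker genes are named outside that rule. The members and lists were chosen with earlier results of these data known. Promoters and coordinates are from RefSeq and GENCODE vM21. Python 3.11.15 read the tables.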

Additional observations from a re-analysis of the deposited data

How the results depend on the processing

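Under 14 alternatives, 11 of the 16 called Wnt pathway genes kept their call wherever they were tested (10 higher, 1 lower), and Fzd2, Lrp6, Axin1, Tcf7l2 and Ctnnb1 lost it in at least 1. Wnt4 gained a call with voom, and Lrp5 with voom and without Atg5F/F replicate 2. The number called higher was 10 with a filter of 5 FPKM, where fewer genes are tested, and 18 with no filter, where more are. With the same genes tested it ran from 10 with the length trend removed to 16 with voom on the recovered reads. The number called lower was 1 with quantile normalization and 1 to 2 with a library left out. Fzd5 and Fzd7, not called in any setting, changed sign: with median-ratio scaling (-0.017 and -0.0060), quantile normalization (-0.027 and -0.015) and the length trend removed (-0.076 and -0.046), and with a library left out (-0.050 to 0.059 for Fzd5 and -0.011 to 0.049 for Fzd7). Of the other lists, extracellular modulators had 1 lower with a filter of 5 FPKM, where fewer genes are tested, and the destruction complex list had 20 higher on voom. The polarity and calcium list had 5 higher with the length trend removed and 5 to 8 with a library left out. It had 1, 4 and 5 lower with no filter, voom and the length trend removed, and 1 to 2 with a library left out. The cause was not tested. Whether replicate numbers pair the samples could not be settled. Same-numbered correlations of deviations were 0.16, 0.08 and -0.02, and the others ran from -0.13 to 0.05. Libraries of replicates 1 and 2 correlated best with their own number, and those of replicate 3 did not. With the replicate number as a block, 4668 genes were called, against 4530 without, and the block changed the call of none of the 24 tested Wnt pathway genes. Depth limits the genes below the filter: the SE of the log2 difference was 0.34 for Axin2, and even the larger differences of Wnt10b (0.70) and Sfrp5 (1.11) on a few reads were not called. The median over all genes moved by under 0.1 under every scaling.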
